A study of Mus musculus with 6 samples.

Results

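The genes described here encode heat shock proteins and DnaJ proteins (J-proteins), the chaperones that fold, refold and sort other proteins. They were chosen by symbol alone, as entries that begin with Hsp followed by a letter from a to h or a digit, or with Dnaja, Dnajb or Dnajc followed by a digit. This gave 75 of the 21761 genes of the table, and 74 of the 75 had enough reads to be tested (all but Hspb2). By class they were 3 HSP90, 11 HSP70, 3 HSP110, 2 chaperonin, 7 small heat shock protein, 4 DNAJ class A, 13 class B and 28 class C genes. The other 4 only share the letters of the name: Hspbp1 and Hspbap1 encode binding partners, Hspb11 a protein of cilia, and Hspg2 the matrix proteoglycan perlecan.

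RNA-seq was done on 6 libraries of mouse bone marrow cells, all from male C57BL/6J animals, 2 for each of 3 times in a culture with a supernatant that holds Flt3 ligand, a cytokine that drives dendritic cell development. The groups were fresh marrow (day 0, with replicates numbered II and III), cells of day 4 (replicates I and II, labelled common myeloid progenitor) and cells of day 7 (replicates III and IV, labelled bone marrow-derived dendritic cell). The supernatant came from a transfected SP2/0 line, and for days 4 and 7 the labels say that all live cells were taken. The labels do not state whether replicates are different animals or cultures. A p-value here thus reflects spread among libraries, possibly only technical.

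HSP70 proteins hold unfolded stretches of other proteins and let them go in a cycle driven by ATP. J-proteins bring clients to HSP70 and speed that cycle, HSP110 proteins help to reset it, and HSP90 acts later on clients that are nearly folded. The chaperonin of mitochondria is a chamber of HSP60 (Hspd1) closed by a lid of HSP10 (Hspe1). Heat shock factor HSF1 raises the inducible cytosolic members under stress, and the unfolded protein response raises those of the endoplasmic reticulum (ER).

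Depth rose with day of culture. Totals were 157797 to 322837 reads in genes at day 0, 1365635 to 3852628 at day 4 and 10951745 to 16149088 at day 7. A floor of 3 reads for a gene 1 kb long thus stood at 9.29 and 19.01 RPKM (reads scaled to exon length and to library total) at day 0 and at 0.186 and 0.274 RPKM at day 7. Day 0 libraries were the least alike, with a Pearson correlation of 0.773 over the 74 tested chaperone genes, against 0.936 at day 4 and 0.979 at day 7. Reads in odorant, vomeronasal and trace amine receptor genes, which marrow should not use, made up 1.44% to 1.51% of reads at day 0, 0.146% to 0.749% at day 4 and 0.00378% to 0.00409% at day 7. Of the markers listed for macrophages, the 10 genes summed to 107 to 109 RPKM at day 0, 49.5 to 54.7 at day 4 and 9977 to 10427 at day 7. The 10 neutrophil markers summed to 8547 and 66840 RPKM at day 0, 36198 to 49149 at day 4 and 172 to 180 at day 7. The 10 dendritic cell markers summed to only 87.3 and 99.9 RPKM at day 7, with Clec9a and Xcr1 at 0 in library IV. The 10 erythroid markers summed to 1041 and 1230 RPKM at day 0, 157 and 184 at day 4, then 1.00 and 0.750 at day 7. The 10 progenitor markers summed to 135 and 170 RPKM at day 0, 299.99 and 360 at day 4, then 325 and 379 at day 7. Among them Meis1 was at 0 in day 0 library III, Gata2 in day 7 library III and Hlf in day 7 library IV. In bulk RNA fewer cells of a type and less RNA per cell cannot be told apart, and the part of these cell types in the results below was not tested.

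Sequences before the starts of some of these genes are shown next, and their part in the results was not tested. Hspd1 and Hspe1 stand head to head on mouse chromosome 1, and the stretch between their starts carries a heat shock element, the site that HSF1 reads. It is shown because both genes border it and the ratio of their RNA differed between days. The stretch is chr1:55087933-55088147 of GRCm38.p6 (RefSeq), printed on the strand of Hspe1, with the start of Hspd1 just before its first base and that of Hspe1 just after its last. Capitals mark the element.
Hspd1 and Hspe1: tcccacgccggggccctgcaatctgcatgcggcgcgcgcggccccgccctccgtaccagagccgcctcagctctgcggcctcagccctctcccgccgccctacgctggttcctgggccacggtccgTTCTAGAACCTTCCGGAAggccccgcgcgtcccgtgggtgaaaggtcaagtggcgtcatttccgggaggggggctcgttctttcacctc
The 18 marked bases hold overlapping matches to a 3-unit element, spelled out below, and end 72 bases before the start of Hspe1. RefSeq lists another start of Hspd1 at 55088243, inside Hspe1, so the genes overlap there and reads of the overlap cannot be assigned without strand.

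Hspa1a and Hspa1b, the stress-inducible HSP70 pair on chromosome 17, have nearly the same sequence before their starts. Their stretches from 150 to 51 bases before the start are chr17:34972207-34972306 and chr17:34959289-34959388, both on the minus strand. They are shown because the genes fell together, and capitals mark the 2-unit element.
Hspa1a: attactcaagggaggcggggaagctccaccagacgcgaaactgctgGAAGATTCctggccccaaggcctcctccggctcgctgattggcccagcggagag
Hspa1b: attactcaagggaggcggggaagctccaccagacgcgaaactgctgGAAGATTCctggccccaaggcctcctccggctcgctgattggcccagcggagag
The printed 100 bases had 0 mismatches, and the whole windows of 300 bases had 4. These windows lie mostly before the starts, and the transcripts of the pair were not compared. Whether Hspa1a and Hspa1b share reads was not tested, and the split between them is taken as uncertain.

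ER chaperone genes carried another site, the ER stress element, searched on both strands as CCAAT, any 9 bases and CCACG. Capitals mark it with 10 bases on each side in Hspa5 (chr2:34772015-34772053, plus strand), Hsp90b1 (chr10:86705523-86705561, minus strand) and Dnajc3 (chr14:118937817-118937855, plus strand). These are shown because they are the only 3 chaperone genes with a match.
Hspa5: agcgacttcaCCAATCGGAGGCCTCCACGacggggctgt
Hsp90b1: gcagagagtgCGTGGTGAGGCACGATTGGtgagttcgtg
Dnajc3: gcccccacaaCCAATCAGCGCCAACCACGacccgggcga
RefSeq windows of 250 bases before to 50 after the start were found for 61 of the 75 chaperone genes. The ER stress element was in windows of these 3 genes (4.92% of the 61) and of 0.137% of all genes, or 0.119% of all 32851 windows. The 3-unit heat shock element was GAA, TTC and GAA, or TTC, GAA and TTC, with any 2 bases between units, a pair that covers both strands. It was in windows of Dnajb6, Hspd1, Hspe1 and Hsph1 (6.56% of the 61) and of 0.662% of all genes, or 0.603% of all windows. Hspd1 and Hspe1 share the element printed above. The shorter GAANNTTC or TTCNNGAA, which lies within the 3-unit element, was in windows of 16 of the 61 genes (26.2%) and of 17.0% of all genes, or 15.1% of all windows. A match describes letters only.

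Levels spanned a wide range, and a few genes held most of the chaperone RNA. All 75 genes together took 0.718% to 1.14% of the reads of a library, with exact Clopper-Pearson 95% intervals of 0.713% to 0.723% and 1.13% to 1.15% for these extremes. Such intervals and the floors in reads describe counting error alone, since reads can be PCR copies of 1 molecule. The 5 genes of highest mean, Hspa8, Hsp90ab1, Hspa5, Hsp90aa1 and Hspe1, made up 53.1% to 66.2% of the summed RPKM of the chaperone genes. A mean of at least 5 RPKM over the libraries was reached by 49 genes, while 26 lay under it. Among these were 6 of the 7 small heat shock protein genes. The heat map of the 33 genes given with their values shows Hsp90ab1, Hspa8 and Hspa5 bright in every library, and Hspe1 bright only at day 7.

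**Figure D1:**
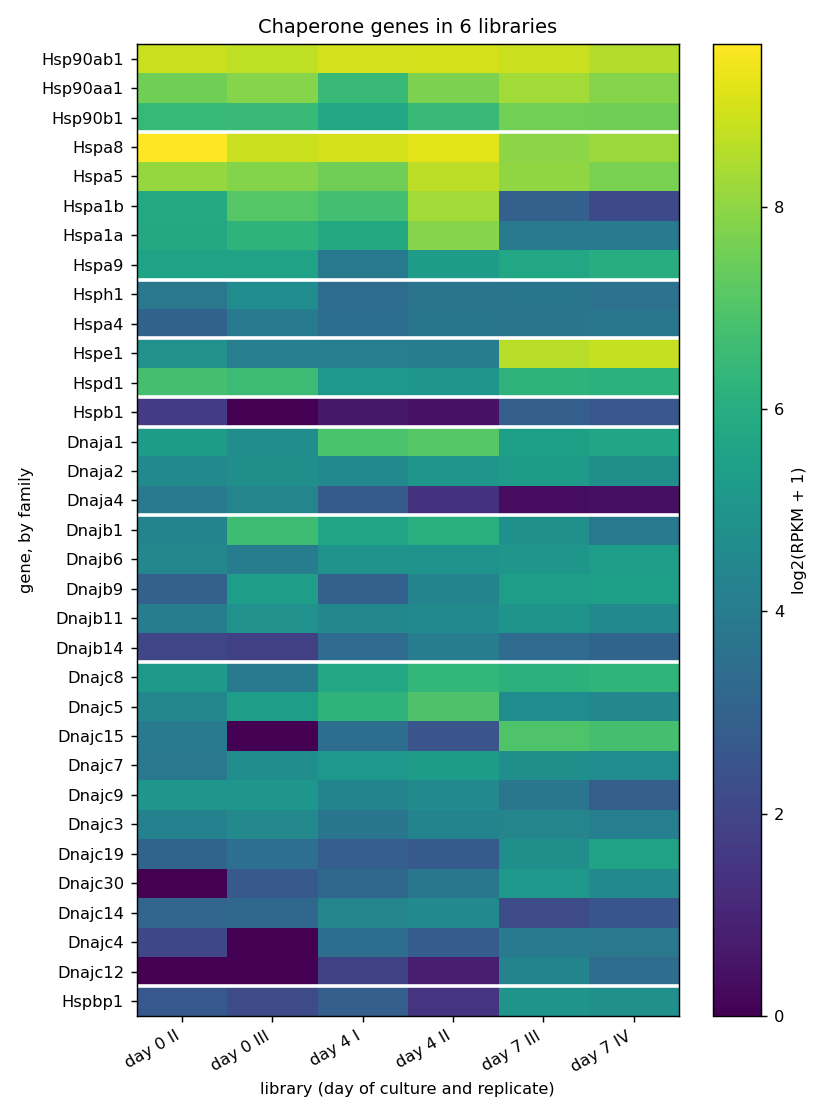
Level of 33 chaperone genes (rows, grouped by family with white lines between families) in each of the 6 libraries (columns), as log2(RPKM + 1). Hspe1 is at 15.5 to 28.2 RPKM in the libraries of days 0 and 4 and at 383 and 436 RPKM at day 7, while Hspa1a and Hspa1b are darkest at day 7.

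Most chaperone genes did not pass the test in any comparison. Values were fitted as log2(RPKM + 1) with limma over all 19279 genes with enough reads, and a gene was called at a Benjamini-Hochberg adjusted p under 0.05. Fold changes below are on that log2 scale, which understates changes of low genes, with ± SE. From day 0 to day 4, 1 chaperone gene rose and 1 fell, 2.70% of the 74, where 5.58% of all genes were called (3.66% higher and 1.92% lower). From day 4 to day 7, 4 rose and 5 fell, 12.2% of the 74 against 12.6% of all genes (5.85% higher and 6.75% lower). Day 7 against day 0 gave 9 higher and 13 lower, 29.7% of the 74 against 40.6% of all genes (11.3% higher and 29.3% lower). The shares of chaperone genes were thus near or below those of all genes, and 48 of the 74 were called in none of the 3 comparisons. Without adjustment, p under 0.05 was reached by 8 higher and 7 lower, 13 and 10, and 12 and 15 chaperone genes. The same rule took 11.2% and 14.2%, 10.9% and 18.3%, and 13.7% and 38.5% of all genes, or 25.4%, 29.2% and 52.2% in both directions. Libraries did not overlap for 15 higher and 19 lower, 24 and 29, and 20 and 24 chaperone genes. Over all genes that was 17.9% and 33.3%, 19.6% and 57.6%, and 19.6% and 50.8%, or 51.2%, 77.2% and 70.3% in both directions. Median log2 fold changes of the chaperone genes were -0.20, -0.04 and -0.32 in the same order, beside -0.40, -0.81 and -1.14 for all genes tested. At a mean of at least 5 RPKM the medians were 0.07, 0.23 and 0.28 for 49 chaperone genes and 0.20, -0.03 and 0.18 for all 8121 genes. Of these 49, 4.08%, 18.4% and 26.5% were called, against 11.6%, 27% and 43.6% of the 8121. For day 7 against day 0, 2107 of the 8121 were called higher and 1431 lower. After scaling by median ratios the calls among the 74 were 1 higher and 0 lower, 8 and 4, and 13 and 12. After quantile normalization they were 2 and 3, 4 and 3, and 8 and 6. Over all 19279 genes, median ratios gave 1102, 2760 and 8251 calls, of which 728, 1440 and 2753 were higher. Quantile normalization gave 1265, 978 and 2141 calls, of which 714, 495 and 1211 were higher. The comparisons with day 4 share its libraries, as those with day 0 or day 7 share theirs.

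Leaving out 1 library leaves its day with a single library, which the fit assumes to vary like the other days. When day 4 library I was left out, limma called 0 genes of any kind for day 4 against day 0 and for day 7 against day 4 (6499 and 4062 had an unadjusted p under 0.05). Leaving out library II likewise gave 0 in both (3437 and 7160 had an unadjusted p under 0.05). Of the 16 alternative analyses, the fall of Hspa1b and of Dnaja4 against day 0 was lost in 0. Against day 0 the call was lost in 1 for Hspe1, 2 for Dnajc12, 3 for Hspbp1, 4 for Dnajc9, 5 for Dnajc19, 6 for Hspa1a, 7 for Dnajc15 and Dnajc30, 8 for Dnajc4 and Dnajb14 and 10 for Dnajc8. From day 4 to day 7 it was lost in 2 for Hspa1b, 3 for Hspe1, 4 for Dnajc19, 6 for Dnajc5 and Dnajc14, 7 for Hspa1a and Hspbp1 and 8 for Dnaja1 and Dnajc12. From day 0 to day 4 it was lost in 9 for Dnaja1 and 10 for Hspd1. None of these fold changes turned its sign in any of the 16.

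Hspe1, the lid of the mitochondrial chaperonin, had the largest rise of the called chaperone genes from day 4 to day 7. It had 28.2 and 16.5 RPKM in the day 0 libraries, 16.2 and 15.5 at day 4, then 383 and 436 at day 7. Both day 7 libraries thus lay far above all others, and Hspe1 went from rank 20 and 23 among the chaperone genes at day 4 to rank 2 and 1. The log2 fold change from day 4 to day 7 was 4.60 ± 0.39 (limma adjusted p = 0.000449, or 0.0825 and 0.0554 without day 4 library I or II). Against day 0 it was 4.18 ± 0.39 (limma adjusted p = 0.000606), a call that held without any 1 library. Day 0 rests on 9 reads, and the pooled depth-scaled ratio of day 7 to day 0 was 16.6 (exact 95% interval 8.72 to 36.2). With all libraries thinned to 157797 reads both calls ended, at adjusted p = 0.0641 against day 4 and 0.0934 against day 0, with fold changes of 6.95 and 3.95.

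Hspd1, the chamber itself, was also higher at day 7 than at day 4, but by less than its lid and without a call. It had 108.9 and 95.1 RPKM at day 0, 33.9 and 32.1 at day 4, then 74.3 and 70.3 at day 7, and the libraries of the 3 days did not overlap. The fall from day 0 to day 4 passed (-1.60 ± 0.35, limma adjusted p = 0.0408) and the later values did not (1.11 ± 0.35 against day 4, adjusted p = 0.0781). The call of the fall ended without day 4 library I or II (limma adjusted p = 0.0758 and 0.161) and when a day 7 library was omitted (0.114 for III and 0.112 for IV). The ratio of Hspe1 to Hspd1 in RPKM was 0.259 and 0.174 at day 0, 0.478 and 0.485 at day 4, then 5.15 and 6.20 at day 7. Hspd1 was the more abundant of the pair in the 4 earlier libraries and Hspe1 in the 2 later ones.

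Dnajc15, Dnajc19 and Dnajc30, J-proteins of mitochondria, were also higher at day 7 than at day 0, while Hspa9, Dnaja3 and Dnajc11 were called in no comparison. Of the 8 mitochondrial chaperone genes, the chaperonin pair included, 0 rose and 1 fell from day 0 to day 4 (3.66% and 1.92% of all genes). From day 4 to day 7, 2 rose and 0 fell (5.85% and 6.75% of all genes). Against day 0, 4 were higher and 0 lower at day 7 (11.3% and 29.3% of all genes). Dnajc19, a J-protein of the import motor at the inner membrane, had 7.66 and 10.4 RPKM at day 0, 6.34 and 5.67 at day 4, then 26.9 and 46.0 at day 7. Its day 0 values rest on 6 and 4 reads. Dnajc19 rose by 2.37 ± 0.42 from day 4 (limma adjusted p = 0.0101) and by 1.86 ± 0.42 from day 0 (adjusted p = 0.0154). Without day 4 library I or II and without day 7 library IV the first call ended (limma adjusted p = 0.127, 0.073 and 0.146), and without day 7 library III or IV the second did (0.0574 and 0.169).

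Dnajc15, a close relative of Dnajc19, had 14.3 and 0 RPKM at day 0, 10.2 and 4.81 at day 4, then 123 and 107.8 at day 7. Its day 0 values rest on 3 reads in all, a pooled ratio of day 7 to day 0 of 12.2 (exact 95% interval 4.15 to 59.0). Against day 0 it passed (4.89 ± 1.06, limma adjusted p = 0.0134), but not without day 4 library I or II (0.0928 and 0.0926) or day 7 library III (0.0505). Without day 0 library II the change was 6.86, and without III it was 2.92. Against day 4 it missed the threshold (3.85 ± 1.06, limma adjusted p = 0.0506). Dnajc30, a J-protein tied to the respiratory chain, stood at 0 and 5.46 RPKM at day 0, 8.21 and 12.5 at day 4, then 34.1 and 22.7 at day 7 (3.50 ± 0.80 against day 0, limma adjusted p = 0.0153). With 1 read at day 0 its pooled ratio was 16.4 (exact 95% interval 2.94 to 650), and its call ended without either library of day 4 (adjusted p = 0.0898 and 0.0896) or day 7 (0.0863 and 0.0582). Without day 0 library II the change of Dnajc30 was 2.16, and without III it was 4.85. Hspa9, the HSP70 of the matrix, had 46.8 and 45.8, 13.7 and 37.3, and 53.9 and 62.5 RPKM, and no comparison passed (lowest adjusted p = 0.116, for day 7 against day 4).

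**Figure D2:**
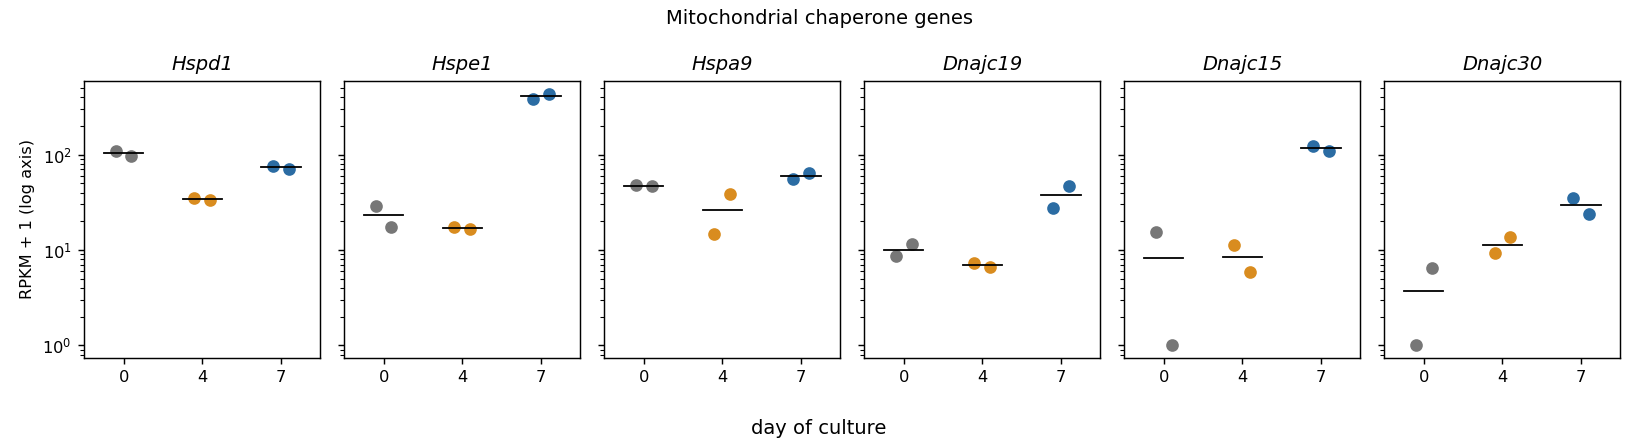
RPKM + 1 on a log axis for 6 genes of mitochondrial chaperones by day of culture; each point is a library and each bar the mean of 2. Hspe1 and Dnajc15 sit highest at day 7, while Hspd1 is highest at day 0 with 108.9 and 95.1 RPKM.

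Gene length moved with these differences. Across the 8121 genes of the table that averaged 5 RPKM or more, the median change from day 4 to day 7 was 1.48 for genes under 1 kb, 0.70 for 1 to 2 kb, -0.05 for 2 to 4 kb and -0.52 for longer ones. Across the 49 chaperone genes of that level, length and change had a Spearman correlation of -0.45, beside -0.29 across all these genes, a description over genes that share the same 6 libraries. Hspe1 (768 bases) and Dnajc15 (648 bases) are the 2 chaperone genes of that level under 1 kb. Dnajc19 at 2427 bases and Hspd1 at 2332 bases fall in the 2 to 4 kb class. For day 7 against day 0, 51.7%, 43.0%, 23.5% and 11.0% of all genes of that level were called higher, from the shortest class to the longest. Chaperone genes called higher were 2 of 2, 5 of 10, 1 of 18 and 1 of 19 in the same order. The 5 of 1 to 2 kb were Dnajc4, Dnajc8, Dnajc12, Dnajc30 and Hspbp1. The part of length in these results was not tested.

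**Figure D3:**
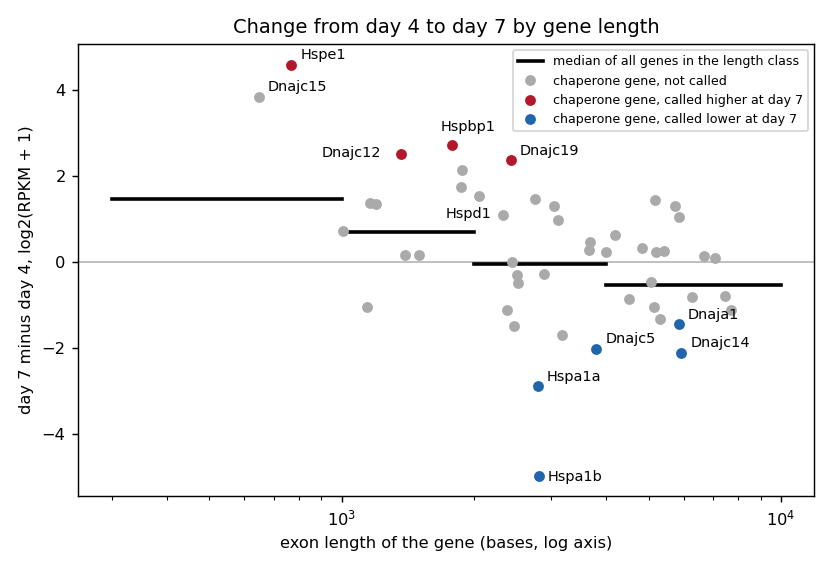
Change from day 4 to day 7 in log2(RPKM + 1) against exon length (log axis) for 49 chaperone genes averaging 5 RPKM or more; black bars are medians of all genes of a length class. Hspe1, at 4.60, lies above the median of 1.48 for genes under 1 kb, and Hspa1b, at -4.97, below the median of -0.05 for genes of 2 to 4 kb.

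The stress-inducible HSP70 genes fell to their lowest level at day 7. Hspa1b had 57.3 and 133 RPKM at day 0, 104.5 and 313 at day 4, then 6.68 and 3.41 at day 7. Every earlier library lay above both of day 7, while days 0 and 4 overlapped. The fall was -4.97 ± 0.63 from day 4 (limma adjusted p = 0.00227) and -3.93 ± 0.63 from day 0 (adjusted p = 0.00469). The call against day 0 held in all 16 alternatives, with a change of -4.53 without day 0 library II and -3.32 without III. The call against day 4 ended without day 4 library I or II (adjusted p = 0.0951 and 0.063, with fold changes of -5.76 and -4.18).

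Hspa1a followed at 55.4 and 74.7 RPKM at day 0, 56.0 and 231 at day 4, then 14.5 and 14.4 at day 7. It fell by 2.89 on the log2 scale from day 4 (SE 0.61, limma adjusted p = 0.0195) and by 2.08 from day 0 (adjusted p = 0.0307). Without day 4 library I the change from day 4 was -3.91 (limma adjusted p = 0.0822) and without day 4 library II -1.88 (0.0614). Both calls ended without day 7 library III (0.0798 and 0.129) or IV (0.0925 and 0.142), and the one against day 0 without day 0 library III (0.0747). Since reads of the pair may be split wrongly, the sum is the safer value. Hspa1a and Hspa1b together had 112.7 and 208 RPKM at day 0, 161 and 544 at day 4, then 21.2 and 17.8 at day 7. That was 9.14% and 21.2%, 18.0% and 33.7%, and 3.61% and 3.08% of the summed RPKM of the HSP70 genes. The wider list of 12 chaperone genes that are HSF1 targets did not share one direction. From day 0 to day 4, 1 rose and 1 fell, where 3.66% and 1.92% of all genes did. From day 4 to day 7, 1 rose and 3 fell (5.85% and 6.75% of all genes), and against day 0, 1 was higher and 2 were lower at day 7 (11.3% and 29.3% of all genes).

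The constitutive HSP70 of the cytosol, Hspa8, had the highest mean RPKM of the chaperone genes over the 6 libraries. It had 781 and 461 RPKM at day 0, 507 and 592 at day 4, then 244 and 285 at day 7. At day 7 Hsp90ab1 and Hspe1 lay above it in both libraries. The day 7 libraries of Hspa8 were its lowest, but the difference did not pass (-1.05 ± 0.54 from day 4, limma adjusted p = 0.227, and -1.18 ± 0.54 from day 0, adjusted p = 0.108). Hspa1l, Hspa12a and Hspa12b, other HSP70 genes, were called lower at day 7 than at day 0 with means under 5 RPKM. With Hspa1a and Hspa1b, 5 of the 11 HSP70 genes were called lower and 0 higher, where 29.3% and 11.3% of all genes were. HSP110 genes are the exchange partners of HSP70. Hsph1 had 13.2 and 24.2, 9.64 and 12.1, and 12.4 and 11.0 RPKM, and Hspa4 had 6.97 and 14.3, 10.00 and 12.1, and 11.9 and 12.7 RPKM. Hspa4l, the other HSP110 gene, had 11.1 and 13.2, 13.7 and 12.9, and 6.51 and 3.36 RPKM, with both day 7 libraries below the other 4 but no call (-1.19 ± 0.44 against day 0, limma adjusted p = 0.057). Of the 3 HSP110 genes 0 were called by limma in any comparison (0 higher and 1 lower at unadjusted p under 0.05 for day 7 against each earlier day).

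Dnaja1, the main cytosolic class A J-protein, peaked at day 4. It had 38.0 and 24.9 RPKM at day 0, 118 and 139 at day 4, then 43.0 and 49.7 at day 7. Both day 4 libraries lay above the other 4. It rose by 2.02 ± 0.38 to day 4 (limma adjusted p = 0.0267) and fell by 1.45 to day 7 (SE 0.38, adjusted p = 0.0434). It was the only chaperone gene of the 74 called in both steps. The rise ended without either library of day 4 (limma adjusted p = 0.0805 and 0.184) or day 7 (0.0628 and 0.0603). The fall ended without either library of day 4 (0.168 and 0.111) or day 7 (0.284 and 0.24) and under median ratio scaling (0.14). Its share of the summed class A RPKM was 77.0% and 76.6% at day 4 and 31.0% to 56.5% in the other libraries. Dnaja2, another cytosolic class A gene, lay between 22.7 and 38.9 RPKM throughout and was not called.

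Another pair of J-protein genes were high at day 4 alone, and their fall to day 7 was called. Dnajc5 encodes the cysteine string protein of secretory vesicles. It had 21.2 and 40.0 RPKM at day 0, 74.9 and 121 at day 4, then 24.8 and 20.9 at day 7 (-2.02 ± 0.44 from day 4, limma adjusted p = 0.0221). Dnajc14, a J-protein of the ER membrane, had 7.84 and 8.56, 19.8 and 23.2, and 3.56 and 4.92 RPKM (-2.11 ± 0.40 from day 4, limma adjusted p = 0.0128). Their rises from day 0 to day 4 missed the threshold (limma adjusted p = 0.065 and 0.1). Leaving out day 4 library I or II or day 7 library III or IV gave adjusted p of 0.139, 0.117, 0.0994 and 0.164 for Dnajc5 and 0.1, 0.0601, 0.123 and 0.0845 for Dnajc14. Dnajb1, the partner of inducible HSP70, had 18.8 and 97.4, 50.7 and 63.3, and 27.4 and 13.9 RPKM, with day 0 libraries so far apart that no comparison passed (lowest limma adjusted p = 0.201).

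**Figure D4:**
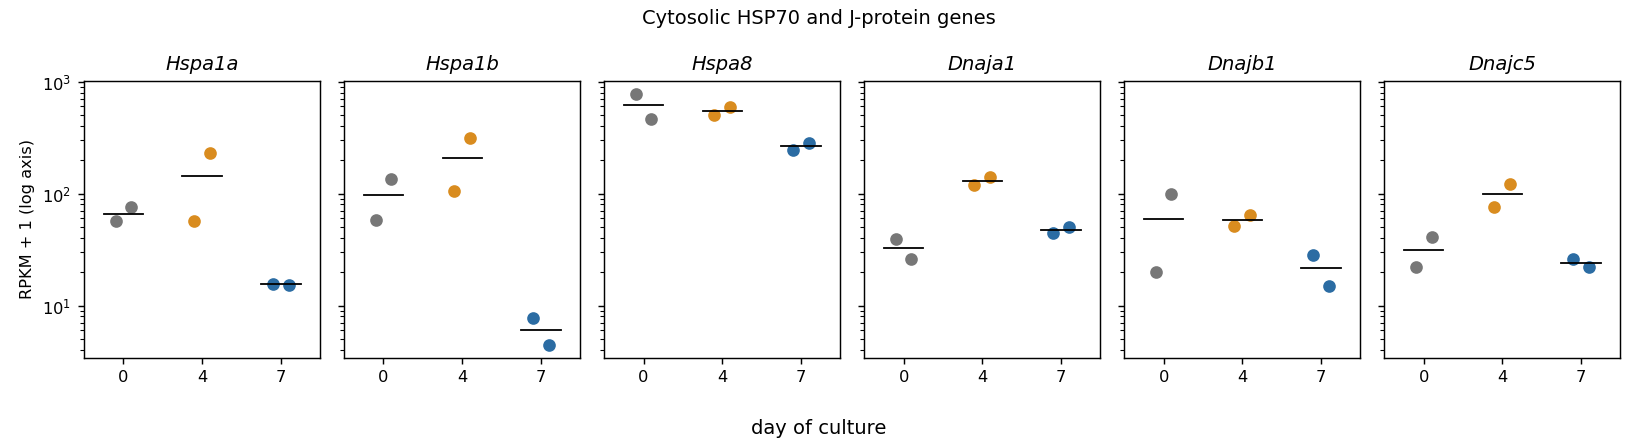
RPKM + 1 on a log axis for 6 genes of cytosolic HSP70 and J-proteins by day of culture; each point is a library and each bar the mean of 2. Hspa1a and Hspa1b are lowest at day 7, and Dnaja1 and Dnajc5 are highest at day 4, Dnaja1 at 118 and 139 RPKM.

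HSP90 genes were abundant at all times, and 0 of the 3 were called in any comparison by limma (1 was higher at unadjusted p under 0.05 in each comparison with day 7). Hsp90ab1, the constitutive cytosolic form, had 458 and 412 RPKM at day 0, 494 and 508 at day 4, then 452 and 361 at day 7. Its largest log2 fold change was -0.31 ± 0.51 (day 7 against day 4, adjusted p = 0.642). Hsp90aa1, the inducible cytosolic form, had 185 and 233, 87.3 and 211, and 309 and 232 RPKM. Its ratio to Hsp90ab1 was 0.177 to 0.565 in the 4 earlier libraries and 0.685 and 0.642 at day 7.

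Of 10 chaperone genes listed for the ER, 1 was called in any comparison, Dnajb14, higher at day 7 than at day 0. In that comparison 11.3% of all genes were higher and 29.3% lower. Hsp90b1, which encodes the ER form of HSP90, had 86.4 and 89.6 RPKM at day 0, 51.5 and 87.4 at day 4, then 190.4 and 183 at day 7. Both day 7 libraries were above the other 4, but the tests missed the threshold (1.46 ± 0.41 from day 4, limma adjusted p = 0.0538, and 1.08 ± 0.41 from day 0, adjusted p = 0.0652). Hspa5, the ER HSP70 known as BiP, had 269 and 226, 185 and 407, and 255 and 202 RPKM, and the days overlapped (adjusted p = 0.691 to 0.887). Dnajc3, an inhibitor of the stress kinase PERK and partner of BiP, lay between 12.4 and 22.0 RPKM in all libraries. Dnajb9, a J-protein that restrains the sensor IRE1, had 6.64 and 40.8, 6.67 and 19.3, and 40.0 and 41.5 RPKM and was not called. Dnajb11, another partner of BiP, lay between 15.3 and 30.4 RPKM. Dnajb14, a J-protein of the ER membrane, had 3.05 and 2.498 RPKM at day 0, 9.24 and 15.3 at day 4, then 9.37 and 7.56 at day 7. Its day 0 values rest on 5 and 2 reads, where 3 reads of this gene are 1.83 and 3.75 RPKM. Dnajb14 was higher at day 7 than at day 0 (1.32 ± 0.45, limma adjusted p = 0.0474). That call ended without day 0 library III or day 7 library III or IV (adjusted p = 0.0847, 0.272 and 0.211). Dnajc14, also of the ER membrane and called lower from day 4 to day 7, was not among the 10.

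Small heat shock proteins, which hold unfolded proteins without ATP, were scarce in these cells. Of the 7 genes only Hspb6 averaged at least 5 RPKM over the libraries, at 5.05. Hspb1, the best known of the class, had 2.19 and 0 RPKM at day 0, 0.517 and 0.367 at day 4, then 6.52 and 5.09 at day 7. The test missed the threshold (2.23 ± 0.70 from day 4, limma adjusted p = 0.0753), and days 0 and 4 held 1 and 3 reads. Hspb3 and Hspb9 were called lower at day 7 than at day 0 on 2 reads each at day 0. They belong to 9 chaperone genes with means under 5 RPKM that were called lower in that comparison. The others were Dnajb7, Dnajc6, Dnajc27, Hspa1l, Hspa12a, Hspa12b and Hspg2, which had 3 to 21 reads at day 0. Over all genes 5649 of 19279 (29.3%) were called lower in that comparison. Only 1431 of these 5649 had a mean of at least 5 RPKM, so low calls were common across the table. The share of reads in receptor genes fell over the same days, from 1.44% and 1.51% to 0.00378% and 0.00409%, and its part in these low calls was not tested.

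Other J-proteins differed between the ends of the culture. Dnajc12, a J-protein that binds aromatic amino acid hydroxylases, had 0 reads at day 0, 2.68 and 0.761 RPKM at day 4, then 19.1 and 9.70 at day 7. With a floor of 3 reads over both day 0 libraries it was at least 3.35-fold higher at day 7. It was called against day 0 (limma adjusted p = 0.00515, or 0.0831 without day 7 library III). From day 4 it rose by 2.53 ± 0.63 (limma adjusted p = 0.0365), a call that ended without any 1 library of day 4 (0.112 and 0.0978) or day 7 (0.382 and 0.196). Dnaja4, a class A gene, went the other way at 14.6 and 20.0 RPKM, 5.54 and 1.64, and 0.234 and 0.316 RPKM. It fell by 3.83 from day 0 to day 7 (SE 0.59, limma adjusted p = 0.00413), and this held in all 16 alternatives. Dnajc9, a J-protein and chaperone of histones, had 32.5 and 31.9, 19.4 and 23.1, and 12.8 and 6.60 RPKM. It fell by 1.70 from day 0 (SE 0.41, limma adjusted p = 0.0186, or 0.0503 without day 4 library I and 0.174 without day 7 library IV).

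Dnajc8, a J-protein of the spliceosome, had 35.6 and 13.7, 52.1 and 81.3, and 70.9 and 76.4 RPKM. Its day 0 values rest on 16 and 3 reads. It was higher at day 7 than at day 0 (1.69 ± 0.50, limma adjusted p = 0.0306). Its change was 2.35 without day 0 library II and 1.03 without III (adjusted p = 0.0582 for the latter), and the call also ended without either library of day 4 (0.0982 and 0.0976) or day 7 (0.134 and 0.162). Dnajc4 had 3.08 and 0, 10.2 and 5.94, and 14.3 and 12.9 RPKM. It was called against day 0 (2.85 ± 0.69, limma adjusted p = 0.018), where it had 1 read and a pooled ratio of 6.63 (exact 95% interval 1.18 to 263). That call ended without either library of day 4 (0.0772 and 0.0771) or day 7 (0.109 and 0.108). The change of Dnajc4 was 3.87 without day 0 library II and 1.84 without III. Dnajb6 and Dnajc7, cytosolic J-proteins, were not called. Dnajb6 had 20.6 and 15.2, 29.8 and 30.02, and 32.7 and 39.6 RPKM, and Dnajc7 13.5 and 25.2, 34.0 and 38.0, and 26.5 and 24.3 RPKM.

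Hspbp1 encodes a nucleotide exchange factor that acts on HSP70 and is a chaperone gene by name only. It had 5.21 and 3.55 RPKM at day 0, 6.57 and 1.75 at day 4, then 30.7 and 27.6 at day 7, and both day 7 libraries were above the other 4. Its day 0 values rest on 3 and 1 reads, where 3 reads of this gene are 5.21 and 10.7 RPKM. Hspbp1 rose by 2.72 ± 0.55 from day 4 (limma adjusted p = 0.0161) and by 2.502 ± 0.55 from day 0 (adjusted p = 0.0138). Without day 7 library III or IV both calls ended (limma adjusted p = 0.115 and 0.111 against day 4, 0.0998 and 0.0958 against day 0). Without day 4 library I or II the first ended too (0.0825 and 0.0615), with changes of 3.46 and 1.99.

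Of the wider chaperone system, the regulators and co-chaperones went several ways. Hsf1, the main heat shock factor, had 5.55 and 5.67, 9.83 and 14.5, and 15.4 and 11.7 RPKM and was not called (limma adjusted p = 0.058 for day 7 against day 0). Of 10 heat shock factors and their targets outside the family 3 were higher at day 7 than at day 0 and 0 were lower (Ahsa1, Bag3 and Hsbp1). Over all genes 11.3% were higher and 29.3% lower. Hsbp1, which binds HSF1, went from 13.3 and 5.44 RPKM at day 0 to 54.7 and 58.4 at day 4, then 231 and 230.3 at day 7 (4.59 ± 0.44 against day 0, limma adjusted p = 0.000685). Bag3, an exchange factor and HSF1 target, had 2.39 and 0, 14.1 and 16.1, and 29.3 and 39.8 RPKM (4.26 ± 0.59 against day 0, limma adjusted p = 0.00268). Both of these calls held in all 16 alternatives.

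Co-chaperones were counted by the machine they serve. Among HSP90 co-chaperones, Ahsa1 and Tomm34 were called higher and Fkbp5 lower at day 7 than at day 0. Ptges3, the p23 protein and an abundant co-chaperone, had 101.5 and 94.1, 112.0 and 135, and 105.2 and 149 RPKM and was not called. Fkbp5, a co-chaperone of steroid receptors, had 25.4 and 31.5 RPKM at day 0, 9.47 and 7.17 at day 4, then 0.400 and 0.931 at day 7 (-4.16 ± 0.44 against day 0, limma adjusted p = 0.00095). Tomm34, a co-chaperone of import into mitochondria, had 2.48 and 7.60, 24.0 and 25.4, and 56.4 and 65.3 RPKM (3.50 ± 0.48 against day 0, limma adjusted p = 0.00246). The calls of Fkbp5 and Tomm34 held in all 16 alternatives. Of 12 HSP70 exchange factors and ubiquitin co-chaperones 4 were higher (Bag1, Bag3, Grpel1 and St13) and 2 lower (Bag2 and Hyou1) in that comparison. Over all genes 11.3% were higher and 29.3% lower. St13, the HSP70-interacting protein, had 16.2 and 16.6, 33.0 and 51.4, and 74.8 and 69.95 RPKM (2.07 ± 0.37, limma adjusted p = 0.00724, at most 0.0649 over the alternatives).

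The CCT chaperonin folds actin and tubulin, and prefoldin delivers their unfolded chains to it. Of 13 CCT and prefoldin genes 4 were higher and 0 lower at day 7 than at day 0, where 11.3% and 29.3% of all genes were. All 4 were prefoldin genes (Pfdn2, Pfdn4, Pfdn5 and Vbp1). Cct5, the most abundant CCT gene, had 98.1 and 78.8, 60.4 and 134, and 80.4 and 77.3 RPKM and was not called. Of 10 genes of mitochondrial folding and proteolysis 4 were higher and 0 lower in that comparison, beside the same shares of all genes (Clpp, Grpel1, Hscb and Trap1). Trap1, the HSP90 of mitochondria, had 8.09 and 5.52, 9.56 and 7.01, and 17.0 and 17.1 RPKM (1.23 ± 0.41, limma adjusted p = 0.0443, at most 0.305 over the alternatives).

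Genes of ER folding and the unfolded protein response also split. Of 22 genes 2 rose and 1 fell from day 0 to day 4 (3.66% and 1.92% of all genes). From day 4 to day 7, 5 rose and 0 fell (5.85% and 6.75% of all genes). At day 7, 5 were higher and 3 lower than at day 0 (11.3% and 29.3% of all genes). Xbp1, a transcription factor of that response, had 68.9 and 30.6 RPKM at day 0, 273 and 454 at day 4, then 186 and 202 at day 7 (2.91 ± 0.51 from day 0 to day 4, limma adjusted p = 0.0219, at most 0.21 over the alternatives). Ddit3, a stress factor of the same response, had 0 and 7.28, 42.9 and 56.6, and 24.7 and 12.999 RPKM (4.13 ± 0.87 to day 4, limma adjusted p = 0.0357, at most 0.338). Calr, the lectin chaperone calreticulin, was lowest at day 4, with 298 and 346, 67.8 and 99.3, and 379 and 510 RPKM. It fell to day 4 (-1.95 ± 0.46, limma adjusted p = 0.0487, at most 0.248) and rose to day 7 (2.41 ± 0.46, adjusted p = 0.0129, at most 0.18). Hyou1, the ER member of the HSP110 class, had 9.42 and 18.1, 7.38 and 25.6, and 3.32 and 2.05 RPKM and was lower at day 7 than at day 0 (limma adjusted p = 0.038, at most 0.196). The day 4 calls of Xbp1, Ddit3 and Calr ended when either day 4 library was left out.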

How the data were processed

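Processed values of 6 RNA-seq libraries were used. The authors deposited RPKM per gene with exon lengths, per the file headers. Libraries were made with a SMARTer low-input kit and NexteraXT, per the labels' protocols. The submitters' processing notes list TopHat2 2.0.13, SAMtools 1.1 and the build mm9, but no role for any of them. Counter, annotation and strand setting: not given in the sources used here. RPKM times length gave whole reads within 6.71e-05 reads, so reads and totals were read back.

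Values were fitted as log2(RPKM + 1) for genes with at least 1 RPKM in at least 2 libraries, as 3 group means over all 6 libraries (limma 3.58.1 in R 4.3.3, mean-variance trend, 3 residual and a median of 5.22 prior degrees of freedom), two-sided with Benjamini-Hochberg adjustment over all genes tested. With 2 libraries a group, an exact permutation of labels cannot pass 0.05. The script was tested on simulated data. Plots used matplotlib 3.10.9. The alternatives were other pseudocounts, filters and scalings, a fit on 2 days only, weights per library, voom on reads, thinning, and leaving out each library.

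Chaperone genes and lists were chosen with earlier results of these data known. Given with values were a fixed set of 21 genes, the 12 of highest mean and each called gene with a mean of at least 5 RPKM; of other lists, genes fixed by name and some of the most abundant or of smallest adjusted p, the rest by name only. The count over the HSP90 co-chaperone list is not reported here.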

Additional observations from a re-analysis of the deposited data

How the results depend on the processing

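No paired analysis was possible because the groups compared share at most 1 replicate number. Calls of all genes for day 4 against day 0 went from 1075 to 535 with a pseudocount of 0.1, 349 without a filter, 529 on 2 days only, 309 with voom on reads and 1775 after thinning. Weights per library left 0 (2757 at unadjusted p under 0.05). For day 7 against day 4 they went from 2428 to 3996, 1499, 3921, 12788 and 829 under the same settings and to 978 after quantile normalization. For day 7 against day 0 they went from 7832 to 5068 without a filter, 4957 at 5 RPKM, 2141 after quantile normalization and 3640 after thinning. Higher calls were 705 of 1075, 1127 of 2428 and 2183 of 7832, after quantile normalization 714 of 1265, 495 of 978 and 1211 of 2141, and after thinning 491 of 1775, 314 of 829 and 913 of 3640. With voom they were 116 of 309, 2396 of 12788 and 1333 of 11488. Over all genes the median change was -0.04, 0.04 and -0.01 after quantile normalization and -0.29, -0.70 and -0.96 after median ratio scaling.

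Chaperone genes called higher at day 4 than at day 0 were 1, and 0 without a filter, on 2 days only, with weights and with voom (10, 7, 6 and 2 at unadjusted p under 0.05), 3 at 5 RPKM and 2 after quantile normalization. Those called lower were 1, and 0 with a pseudocount of 0.1, median ratios, 2 days only, weights and voom (3, 5, 3, 4 and 5 at unadjusted p under 0.05), 2 with a pseudocount of 5 and 3 at 5 RPKM and after quantile normalization. From day 4 to day 7 the 4 higher became 9 at 5 RPKM, 8 by median ratios, 12 on 2 days only, 7 with weights, 16 with voom and 1 after thinning, and the 5 lower became 3 after quantile normalization, 26 with voom and 1 after thinning. For day 7 against day 0 the 9 higher became 5 without a filter and with voom and 1 after thinning, and the 13 lower became 4 without a filter, 5 at 5 RPKM, 6 after quantile normalization, 20 with voom and 3 after thinning. Over all genes the calls at 5 RPKM were 1589 for day 4 against day 0 and 2995 for day 7 against day 4. A pseudocount of 5 gave 1351 for day 4 against day 0, and weights gave 2517 for day 7 against day 4. Why the counts moved was not tested.

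Leaving out 1 library gave 0 to 2397, 0 to 4120 and 1173 to 9200 calls of all genes, with the comparisons in the order of the text above. Chaperone genes called higher were 0 to 5, 0 to 12 and 1 to 13, and lower 0 to 2, 0 to 7 and 2 to 18. Sdf2l1, an ER gene called higher at day 7 than at day 0, turned to -0.23 after quantile normalization (limma adjusted p = 0.722). No chaperone gene given with its values changed direction in a comparison where it was called. Day 0 depth limits what could be seen there, since 3 reads of a 1 kb gene are 9.29 and 19.01 RPKM.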
